A study of Homo sapiens with 6 samples.

Results

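The 10 genes described here, IFI6, IFI27, IFI35, IFI44, IFI44L, BST2, ISG15, ISG20, MX1 and MX2, are interferon-induced antiviral effectors. They were picked by name from 18417 genes measured in RL cells, with their difference between LY317615-treated and untreated cells already known, so their values in that comparison are a description, with no p-value given. Each of the 10 is read by a single set of probes, called a probe set, so no choice between probe sets was needed. RL, an established cell line from a human B-cell lymphoma, has the t(14;18) translocation. LY317615 (enzastaurin) was designed to inhibit the kinase PKC beta. There were 3 arrays of untreated RL cells and 3 arrays of RL cells given 2.5 mM LY317615, a dose whose unit could not be checked here, and the titles of all 6 give 48 h. All 6 arrays are of the 1 line in RPMI-1640 medium with fetal bovine serum, and the labels name no vehicle for the untreated cells.

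Type I interferons bind a receptor made of IFNAR1 and IFNAR2, whose kinases JAK1 and TYK2 activate the factor ISGF3. ISGF3 binds the interferon-stimulated response element (ISRE) of its target genes through its subunit IRF9, whereas the gamma-activated sequence (GAS) serves above all the response to interferon gamma. The effectors act at different steps of a viral life cycle. MX1 and MX2 are dynamin-like GTPases that trap viral nucleoproteins or capsids, BST2 (tetherin) holds budding particles at the cell surface, ISG20 is an RNA exonuclease, and ISG15 is a ubiquitin-like modifier. IFI6 and IFI27 are small membrane proteins of 1 family, IFI35 binds the protein NMI, and IFI44 and IFI44L are related cytoplasmic proteins encoded side by side.

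RefSeq promoter windows, running from 250 bases before to 50 bases after a transcription start on GRCh38.p14, were at hand for 9 of the 10 genes, all but MX2. IFI27 and IFI44 had 2 starts each and MX1 had 3. Positions are counted so that the base at the start is 0. The ISRE core was searched as GAAA, any 2 bases and GAAA again, and the GAS core as TTCNNNGAA, both on either strand. The bases before a start held the ISRE core in 8 of the 9 genes with a window, against 1061 of all 35116 windows (3.02%) and 3.71% of the 27305 genes that have one. The GAS core lay there in 4 of the 9 genes, against 8.09% of all genes with a window, and in IFI27, BST2 and MX1 it overlapped an ISRE match. A match is a description of letters and not a measured binding site.

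The stretches around the matches are shown because they carry what 8 of the genes share in sequence. Each runs 5′ to 3′ on the gene's strand and ends before the start, and capitals mark the ISRE core or its reverse complement.
IFI6 (chr1:27672251-27672373, minus strand): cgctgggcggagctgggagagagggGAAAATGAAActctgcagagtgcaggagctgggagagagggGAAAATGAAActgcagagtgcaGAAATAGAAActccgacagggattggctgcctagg
IFI27 (chr14:94110603-94110675, plus strand): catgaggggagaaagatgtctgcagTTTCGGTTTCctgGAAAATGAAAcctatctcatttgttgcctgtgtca
IFI44 (chr1:78649746-78649788, plus strand): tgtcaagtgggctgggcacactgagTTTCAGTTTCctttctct
IFI44L (chr1:78620259-78620434, plus strand): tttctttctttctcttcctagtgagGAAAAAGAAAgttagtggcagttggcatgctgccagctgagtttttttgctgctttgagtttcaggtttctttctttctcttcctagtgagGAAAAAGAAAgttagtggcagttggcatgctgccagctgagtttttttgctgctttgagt
BST2 (chr19:17405720-17405785, minus strand): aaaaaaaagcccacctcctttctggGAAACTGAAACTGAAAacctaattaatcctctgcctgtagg
ISG15 (chr1:1013359-1013424, plus strand): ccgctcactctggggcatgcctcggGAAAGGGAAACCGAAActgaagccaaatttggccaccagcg
ISG20 (chr15:88638922-88638981, plus strand): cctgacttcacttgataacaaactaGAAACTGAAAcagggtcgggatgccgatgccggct
MX1 (chr21:41431829-41431888, plus strand): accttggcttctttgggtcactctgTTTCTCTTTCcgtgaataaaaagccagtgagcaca

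**Figure D1:**
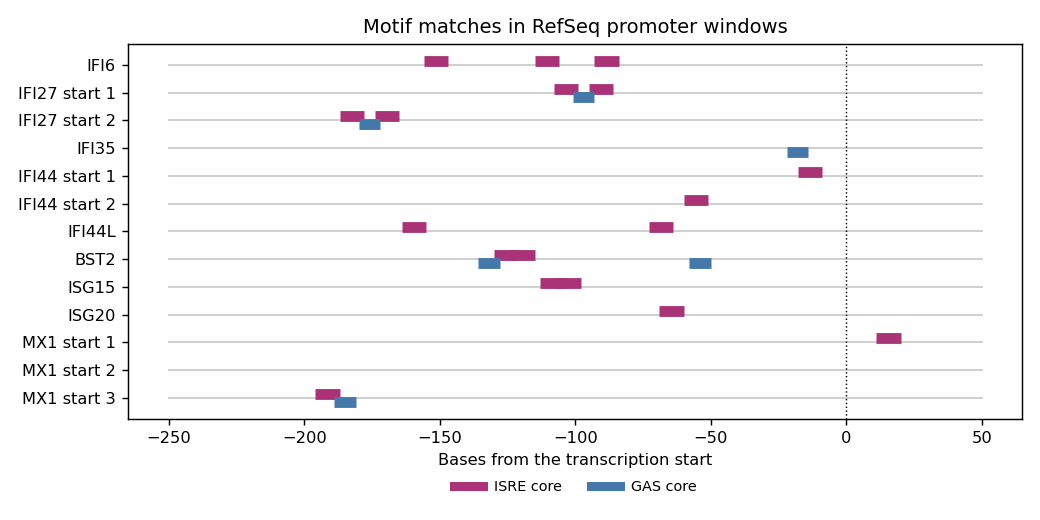
Positions of ISRE-core (purple) and GAS-core (blue) matches, in bases from the transcription start at 0, with 1 grey line per RefSeq promoter window of 9 genes. ISRE matches lie before a start in 8 genes, IFI35 has only a GAS match, and MX1 has a further ISRE match after its first start.

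The 8 genes differed in the arrangement of these matches. IFI6 held 3 copies, starting at -156, -115 and -93. BST2 and ISG15 each held a pair that overlap, at -130 and -124 in BST2 and at -113 and -107 in ISG15. IFI27 held a match on each strand, at -108 and -95 from its first start. IFI44 (-18 from its first start) and ISG20 (-69) had 1 match each. For MX1 the first start had a match only after it, at 11 to 20, the second start had none, and the third had the match shown above, at -196. IFI35 had no match to these letters in its window and a GAS match at -22.

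IFI44L and IFI6 also carried long direct repeats within the same windows. In IFI44L a run of 85 bases recurred exactly 91 bases downstream, so that its ISRE matches, at -164 and -73, are copies of each other. Such a repeat of 85 bases was found in 0.0683% of all windows. In IFI6 a run of 29 bases recurred exactly 41 bases downstream, carrying the ISRE matches at -156 and -115, and a repeat that long was found in 0.809% of all windows. The longest repeats of the other members that had one of at least 8 bases were 8 or 9 bases, lengths found in 68.7% and 39.8% of all windows.

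Before the values of the genes, a few facts of the arrays bear on them. Median intensity over all probe sets was 56.7 to 58.2 on untreated and 60.0 to 61.4 on treated arrays. Treated replicate 3 was the outlying array, with a weight of 0.376 in limma, where the remaining arrays had 1.04 to 1.51, so changes are also given without it. The B-cell genes MS4A1 and CD79A read 11.34 and 11.50 on the log2 scale in untreated cells. The T-cell genes CD3D and CD3E read 3.89 and 4.98, and the monocyte gene CD14 read 5.10. Other markers of non-B cells were brighter. NKG7 and CD7, of the T-cell and NK list, read 6.43 and 7.07, and the epithelial gene KRT18 read 7.11. No marker was at 0. Over all genes tested, 14.2% were called higher and 21.4% lower in the fit given below (limma, adjusted p under 0.05). Of the T-cell and NK list 2 of 6 genes were called higher, with a summed intensity of 312 to 327 untreated and 371 to 440 treated, and of the myeloid and dendritic list 2 of 6, at 141 to 150 and 175 to 198. Of the stromal and epithelial list 2 of 6 were higher and 1 lower, at 396 to 427 and 493 to 524. That sum leans on PECAM1, which read 6.60 untreated and 7.72 treated on the log2 scale. Its change was 1.12 in its brightest probe set and 0.54 with its probe sets averaged. COL1A2 was also called higher, by 0.27, and KRT18 was called lower, at -0.48. Of 9 B-cell markers 7 were lower and 1, MME, was higher, by 2.16 ± 0.09 (SE) on the log2 scale. The sum of the 9 went from 15309 to 16130 untreated to 12698 to 13062 treated. The part of these shifts in the results was not tested. In RNA of whole cultures, fewer cells with a transcript and less of it per cell cannot be told apart. Nothing in the labels ties the replicates to separate cultures, and p-values therefore cover only array-to-array spread, which may be technical.

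After LY317615, 9 of the 10 effectors were higher and ISG20 was lower, and in each of the 10 the treated and untreated arrays did not overlap. IFI6, IFI44L and IFI44 were 3.83-, 3.47- and 3.20-fold higher, BST2, MX1 and IFI35 2.42-, 2.16- and 2.02-fold, IFI27 and MX2 1.90- and 1.87-fold, and ISG15 1.30-fold. The median of the 10 log2 changes was 1.06, against 0.02 over all genes tested. In the fit over all genes (limma, adjusted p under 0.05), 9 of the 10 fell among the genes called higher and 1 among those called lower. Of all genes 35.7% were called, 14.2% higher and 21.4% lower. Groups did not overlap in 49.8% of all genes, upward in 22% and downward in 27.8%. A log2 change of at least 1 was seen in 6 of the 10 and in 0.299% of all genes. Since the choice of the genes used this contrast, these counts are no test of the 10 and nothing is read from them. With array medians set equal, 1810 genes were called higher and 4526 lower, against 2622 and 3946, and the count of effectors called higher stayed at 9. It was 8 without untreated replicate 1, without untreated replicate 2 or without treated replicate 1, where ISG15 dropped out. ISG20 was not among the genes called lower without untreated replicate 2 or after cyclic loess.

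**Figure D2:**
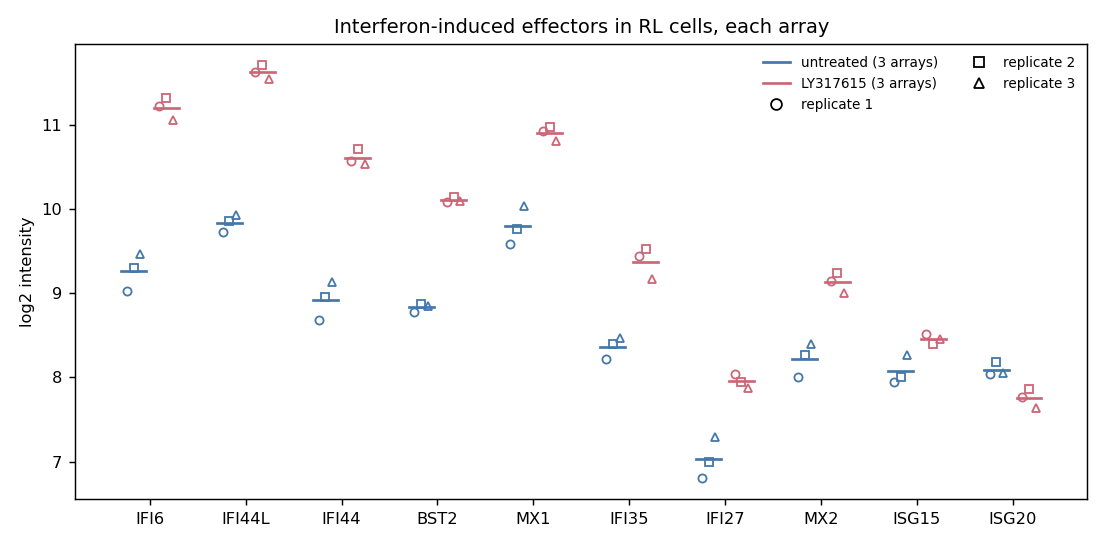
Log2 intensity of each effector on each array (symbols: replicate 1 circle, 2 square, 3 triangle) with the group mean as a line, untreated in blue and LY317615 in red, 3 arrays each. The groups are apart for every gene, widely for IFI44L and narrowly for ISG15, and only ISG20 is lower after treatment; levels of different genes come from different probes and are not to be compared.

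IFI6, IFI44L and IFI44 had the largest changes of the 10. IFI6 is an interferon-induced membrane protein known to protect cells from apoptosis and to hinder flavivirus replication. Its intensity was 521, 630 and 709 on the untreated arrays and 2394, 2564 and 2136 on the treated ones, in replicate order. This is a log2 change of 1.94 ± 0.12 (SE), or 3.83-fold, and the lowest treated array lay 1.59 log2 units above the highest untreated one. IFI44L read 845, 927 and 974 untreated and 3165, 3360 and 2993 treated. Its change was 1.79 ± 0.09 (SE), with the widest gap between groups of the 10, at 1.62. Its neighbour IFI44 read 411, 497 and 560 untreated and 1515, 1680 and 1479 treated, a change of 1.68 ± 0.12 (SE). For IFI6, IFI44L and IFI44 the lowest treated array read 3.01, 3.07 and 2.64 times the highest untreated one.

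BST2 was the least variable of the 10 within groups. It encodes tetherin, a membrane protein that is also present on B-lineage cells. Its intensity was 439, 468 and 460 on untreated arrays and 1087, 1134 and 1092 on treated arrays. The change was 1.28 ± 0.07 (SE), and the arrays of a group spanned only 0.09 log2 units untreated and 0.06 treated. Its SD over the 3 treated arrays was larger than that of only 6.39% of all genes.

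The dynamin-like GTPases MX1 and MX2, neighbours on chromosome 21, moved by similar amounts. MX1, which acts in the cytoplasm against influenza and other RNA viruses, read 765, 871 and 1050 untreated and 1946, 2010 and 1799 treated, a change of 1.11 ± 0.12 (SE). MX2, which acts at the nuclear envelope against HIV-1, read 256, 308 and 337 untreated and 567, 605 and 512 treated, a change of 0.91 ± 0.11 (SE). In both genes untreated replicate 3 was the highest of its group and treated replicate 3 the lowest of its group, which narrowed the gap to 0.78 for MX1 and 0.60 for MX2.

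IFI35 and IFI27 changed by about as much. IFI35, which forms a complex with NMI, read 298, 336 and 354 untreated and 693, 737 and 574 treated, a change of 1.02 ± 0.11 (SE). Treated replicate 3 was its low array, and without it the change was 1.12. IFI27 belongs to the same family of small hydrophobic proteins as IFI6. It read 112, 127 and 157 untreated and 264, 247 and 235 treated, a change of 0.93 ± 0.12 (SE). The treated arrays were close together and the untreated ones were not, with SDs of 0.08 and 0.25 on the log2 scale (n = 3 each).

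ISG15 and ISG20 had the smallest changes, in opposite directions. ISG15, which is joined to proteins in the manner of ubiquitin, read 246, 258 and 308 untreated and 365, 336 and 351 treated. Its change was 0.38 ± 0.10 (SE), and the gap of 0.13 between the groups was smaller than the span of 0.33 within the untreated group. ISG20, the exonuclease, read 263, 290 and 265 untreated and 218, 232 and 199 treated. Its change was -0.34 ± 0.09 (SE), to 79.3% of the untreated level, with a gap of 0.18. After cyclic loess, a scaling that levels intensity-dependent trends between arrays, the change of ISG20 was -0.20, short of the threshold, and that of ISG15 0.54. Without untreated replicate 2 that of ISG20 was -0.29, also short of it. The groups are therefore separate for both genes, but narrowly. The gap of ISG20 was wider than its untreated span of 0.14 and narrower than its treated span of 0.22. Among other members, both gaps were smaller than the untreated span of IFI6 (0.44) and larger than that of BST2 (0.09).

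**Figure D3:**
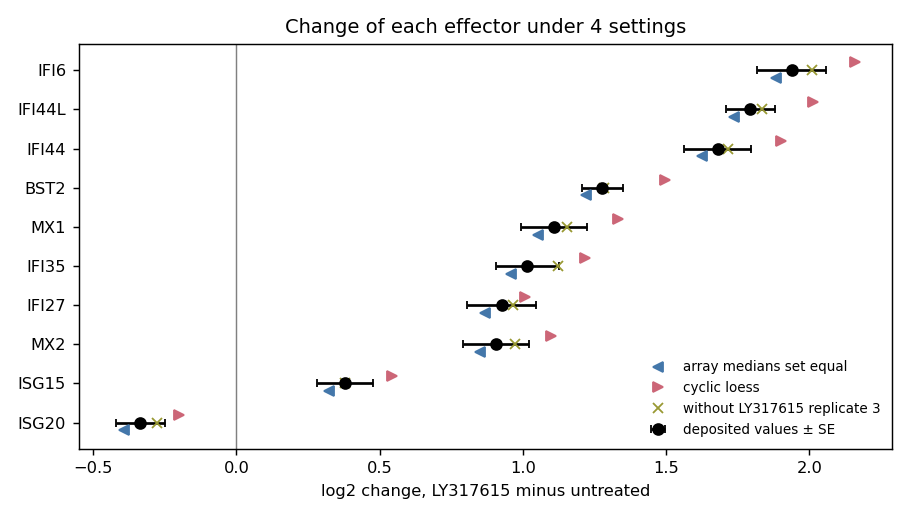
Log2 change of each effector, LY317615 minus untreated, from the deposited values with its SE (black), with array medians set equal (blue), after cyclic loess (red) and without LY317615 replicate 3 (yellow cross), 3 arrays per group (2 treated for the cross). Cyclic loess gives higher values for all 10 genes and equal medians give lower ones, and the sign is the same for each gene in all 4 settings.

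The genes also varied together within a group, which the choice of members did not use. This pattern was noticed in the data and is a description. Untreated replicate 1 was the lowest of its group for all 10 genes, ISG20 included, and replicate 3 was the highest for 8, the exceptions being BST2 and ISG20. Over all genes tested these shares were 34.3% and 31.8%. The median deviation from the group mean over the 10 genes was -0.18, 0.03 and 0.19 on untreated replicates 1, 2 and 3, while over all genes each was within 0.002 of 0. Among the treated arrays replicate 3 was the lowest for 8 genes, the exceptions being BST2 and ISG15, against 41.8% of all genes, and replicate 2 was the highest for 8 genes, against 30.1%.

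Parts of this order of arrays were also counted in other genes of the interferon pathway. Of 31 pathway genes outside the 10 that were called higher after LY317615, 24 had their lowest untreated value in replicate 1, 24 had their highest in replicate 3 and 25 had their lowest treated value in replicate 3. Untreated replicate 1 lowest together with replicate 3 highest was seen in 18 of the 31, against 8 of the 10 effectors and 16.7% of all genes. Treated replicate 2 highest together with replicate 3 lowest was seen in 20 of the 31, against 7 of the 10 and 20.1% of all genes. Of the 52 pathway genes not called higher, the numbers for the single positions were 27, 25 and 26, and for the pairs of positions 17 and 9. The members share the arrays and are not independent of each other, so these counts are not replicates of a test. For 8 of the 10 members the untreated SD was larger than the treated SD, the exceptions being IFI35 and ISG20, whereas this held for 36.9% of all genes. The untreated SDs of IFI27 (0.25) and MX1 (0.23) were larger than those of 95.6% and 94.3% of all genes.

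**Figure D4:**
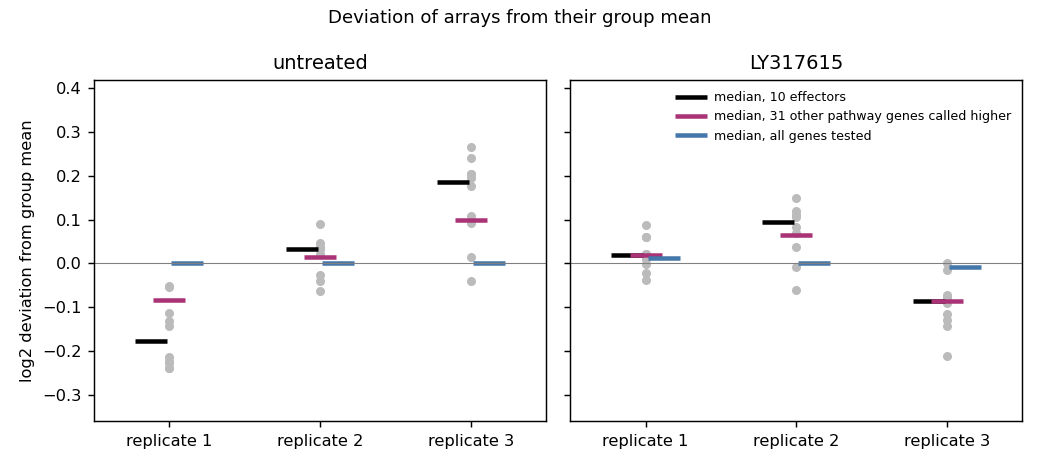
Log2 deviation of each array from its group mean, for the 10 effectors (grey points, 1 per gene) with medians over the 10 (black), over 31 other pathway genes called higher (purple) and over all genes tested (blue), for 3 untreated and 3 LY317615 arrays. The effectors run from a median of -0.18 on untreated replicate 1 to 0.19 on untreated replicate 3, while the medians over all genes stay near 0.

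Likeness to the mean profile of the 10 genes was measured over the 6 arrays as the root-mean-square distance between log2 values centred on each gene's mean. Outside the 10, the nearest profiles were those of SLFN5, SAMD9L, PECAM1, PLSCR1 and FRRS1, at distances of 0.036 to 0.077. SLFN5, SAMD9L and PLSCR1 are themselves interferon-induced, PECAM1 is an adhesion molecule and FRRS1 a ferric reductase. PECAM1 is also 1 of the stromal and epithelial markers called higher above. Its change was 1.12 in its brightest probe set and 0.54 with its probe sets averaged. Within the 10, MX1 lay nearest to the mean profile (0.05) and ISG20 farthest (0.71). As the arrays differ mainly by treatment, this measure ranks genes largely by the size of their change.

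The rest of the pathway was read from lists of genes by role, chosen with earlier results of these data known. Of 83 such genes outside the 10, 31 were called higher and 9 lower, or 37.3% and 10.8%, against the 14.2% and 21.4% of all genes given above. Their median log2 change was 0.13, with 0.08 when array medians were set equal and 0.23 over the 68 that remained without the dimmest 30% of all genes. After cyclic loess 37 of the 83 were higher and 4 lower. Of the 38 genes in the effector lists 23 were higher and 2 lower, with a median of 0.54. Of the other 45, the ligands, receptors, signalling genes, regulators and ISG15 conjugation genes, 8 were higher and 7 lower, with a median of -0.0044.

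**Figure D5:**
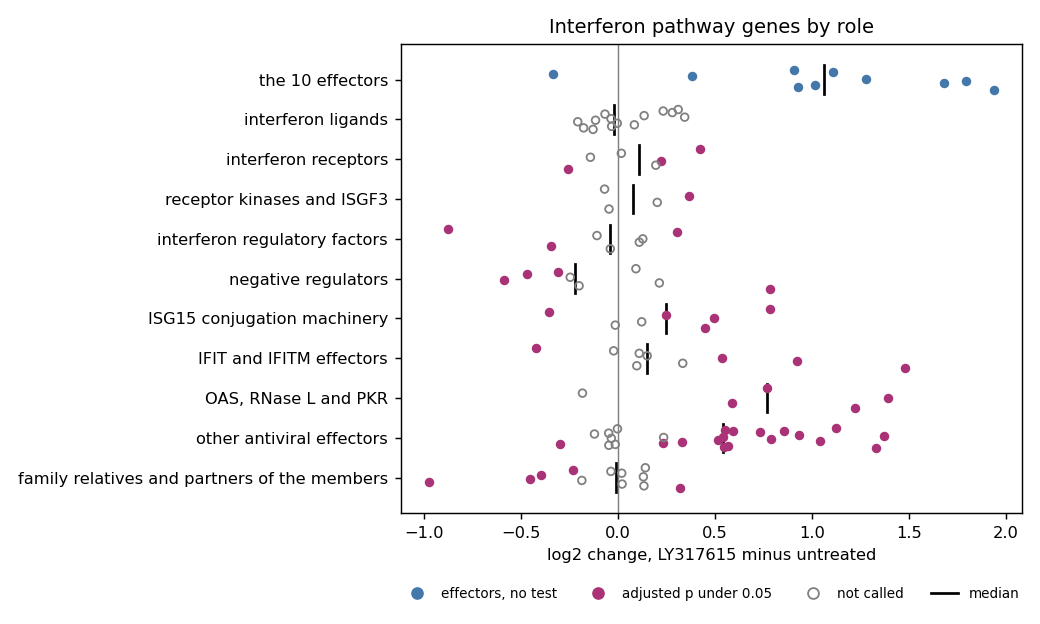
Log2 change, LY317615 minus untreated (3 arrays each), of the 10 effectors (blue, no test) and of other pathway genes by role; filled purple points passed an adjusted p of 0.05 in limma, open points did not, and bars are medians. OAS, RNase L and PKR genes and other antiviral effectors have medians of 0.77 and 0.54, and interferon ligands a median of -0.02 with none called.

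None of 14 interferon ligand genes was called higher or lower in limma, against 14.2% and 21.4% of all genes. Their median was -0.02, or -0.09 to 0.07 over the settings that kept all 14. Without the dimmest 30% of all genes only 3 of the 14 remained, with a median of 0.28 and none called. Most of the 14 are thus dim, and whether they lay above background is not known. The counts at an unadjusted p under 0.05 were 2 higher and 0 lower. The largest changes were those of IFNG, at 0.34 ± 0.13 (SE, adjusted p = 0.0607), and of the lambda interferon IFNL3, at 0.31 ± 0.13 (SE, adjusted p = 0.0859). IFNG was called without untreated replicate 2 (adjusted p = 0.0295), without treated replicate 1 (0.0245) and with the replicate number as a block (0.0372), and IFNL3 without treated replicate 2 (0.0327) and with an intensity trend (0.0299). The IFNA genes are nearly identical copies, and their probes may be shared.

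Of 6 receptor genes 2 rose and 1 fell, or 33.3% and 16.7%, against 14.2% and 21.4% of all genes. After cyclic loess 3 of the 6 were called higher and 0 lower. IL10RB, a chain shared by the interferon lambda and interleukin 10 receptors, rose by 0.42 ± 0.07 (SE), and IFNGR1, a chain of the interferon gamma receptor, by 0.22 ± 0.07 (SE). IFNAR1, a chain of the type I receptor, fell by 0.26 on the log2 scale, with an SE of 0.07 (adjusted p = 0.022). The IFNAR1 call was lost without any one of the untreated arrays (adjusted p = 0.0527 to 0.0768) and after cyclic loess (change -0.04). The IFNGR1 call was lost without any one of those arrays or without treated replicate 1 or 2 (adjusted p = 0.0799 to 0.103), with the block (0.0665) and with array medians set equal (0.146). After cyclic loess IL10RB was at 0.64 and IFNGR1 at 0.39, both called.

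Among 4 tested genes of the receptor kinases and ISGF3, 1 rose and 0 fell, against 14.2% and 21.4% of all genes. The gene that rose was TYK2, at 0.37 ± 0.09 (SE, adjusted p = 0.0137), a call lost without untreated replicate 3 (adjusted p = 0.0534). IRF9, the DNA-binding part of ISGF3, read -0.07 ± 0.09 (SE, adjusted p = 0.558), and JAK1 read -0.05 ± 0.07 (SE).

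Of 7 interferon regulatory factors 1 rose and 2 fell, or 14.3% and 28.6%, against 14.2% and 21.4% of all genes. After cyclic loess 2 of the 7 were called higher and 1 lower. IRF7, which amplifies interferon production, rose by 0.30 ± 0.08 (SE). IRF8, a factor of germinal-centre B cells, fell from 11.57 ± 0.07 to 10.69 ± 0.07 (SD, n = 3), and IRF2, a factor that competes with IRF1, changed by -0.35 ± 0.10 (SE). The IRF2 call was lost without untreated replicate 2 or 3 or treated replicate 2 or 3 (adjusted p = 0.0527 to 0.0683) and after cyclic loess (change -0.14).

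Of 8 negative regulators 1 rose and 3 fell, or 12.5% and 37.5%, against 14.2% and 21.4% of all genes. USP18, which removes ISG15 from proteins and dampens receptor signalling, rose by 0.78 ± 0.14 (SE, adjusted p = 0.0033). The phosphatase gene PTPN2 and the SUMO ligase genes PIAS1 and PIAS4 changed by -0.59 ± 0.10, -0.47 ± 0.08 and -0.31 ± 0.07 (SE). After cyclic loess PIAS4 was at -0.11 and was not called, and PIAS1 was at -0.25 and still called. USP18 also belongs to the 7 tested genes of ISG15 conjugation, of which 4 rose and 1 fell (57.1% and 14.3%). UBA7, the activating enzyme for ISG15, rose by 0.45 ± 0.11 (SE) and TRIM25, a ligase, by 0.24 ± 0.07 (SE), while ARIH1 changed by -0.36 ± 0.07 (SE). The fourth gene that rose, HERC6, at 0.50 ± 0.15 (SE), was named after its values were seen and is a relative of the main human ISG15 ligase gene HERC5, which read 0.12 ± 0.08 (SE). The HERC6 call was lost without untreated replicate 1 or 2 or treated replicate 1 or 2 (adjusted p = 0.0895 to 0.104). The TRIM25 call was lost without any one of the untreated arrays or treated replicate 1 (adjusted p = 0.0782 to 0.0864), with the block (0.0526) and with array medians set equal (0.102). Cyclic loess put TRIM25 at 0.47, called, and ARIH1 at -0.13, not called. The count of genes that rose was 2 without untreated replicate 1, without untreated replicate 2 or without treated replicate 1.

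Over the effector lists together 60.5% of 38 genes rose and 5.26% fell. Of the other 45 genes 17.8% rose and 15.6% fell, and the effector lists differed from each other. Of 9 IFIT and IFITM genes 3 rose and 1 fell, or 33.3% and 11.1%, against 14.2% and 21.4% of all genes. IFIT1, which binds viral RNA lacking a methylated cap, rose by 1.48 ± 0.16 (SE), IFIT3 by 0.92 ± 0.13 and IFIT5 by 0.53 ± 0.08, whereas IFITM10 changed by -0.42 ± 0.11. After cyclic loess 6 of the 9 were called higher. Of 5 tested genes of the OAS enzymes, RNase L and the kinase PKR, 4 rose and 0 fell. OAS3, a sensor enzyme that makes the activator of RNase L, rose by 1.39 ± 0.14 (SE), OAS1 by 1.22 ± 0.12 and OAS2 by 0.59 ± 0.09. EIF2AK2, which encodes PKR, rose by 0.77 ± 0.08, and OASL, named after its value was seen, read -0.18 ± 0.12 (adjusted p = 0.268).

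Of the 24 further antiviral effectors 16 rose and 1, TRIM14, fell, against 14.2% and 21.4% of all genes. TRIM14, named after its value was seen, changed by -0.30, a call lost without untreated replicate 1 or 3 or treated replicate 2 or 3 (adjusted p = 0.0908 to 0.139), after cyclic loess, with a robust prior and with array weights. The helicase gene DDX60 rose by 1.37 ± 0.11 (SE), its relative DDX60L by 0.93 ± 0.10, SLFN5 by 1.12 ± 0.10 and the phospholipid scramblase gene PLSCR1 by 1.04 ± 0.10. DDX60 went from 7.40 ± 0.19 to 8.77 ± 0.13 on the log2 scale (SD, n = 3).

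Relatives and partners of the 10 moved both ways. Of 12 such genes 1 rose and 4 fell, against the 14.2% and 21.4% of all genes. After cyclic loess 3 were called higher and 2 lower, and with an intensity trend 2 and 5. AEN, an exonuclease of the ISG20 family known as a p53 target, fell by 0.98 on the log2 scale, with an SE of 0.08, and the related REXO4 changed by -0.46 ± 0.07 (SE). IFI27L1, of the IFI27 and IFI6 family, rose by 0.32 ± 0.09 (SE, adjusted p = 0.024), and DNM2, a dynamin, changed by -0.40 ± 0.12 (SE, adjusted p = 0.0277). The IFI27L1 call was lost without untreated replicate 2 or 3 or treated replicate 1 or 3 (adjusted p = 0.0623 to 0.0748). The DNM2 call was lost without any one of the untreated arrays (0.0585 to 0.0754) and after cyclic loess (change -0.18), and without treated replicate 3 its change was -0.26. Without untreated replicate 2, and likewise without replicate 3, 0 of the 12 rose and 2 fell, and without treated replicate 1 or 3, 0 rose and 3 fell.

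The genes that flank the 10 on their chromosomes comprised 16 genes outside the 10. They were the genes tested next to each member in order of start coordinate. This order ignores where a gene ends, so a gene that starts farther off could end nearer. AEN, given above as a relative of ISG20, was not among the 16. Of the 16, 5 were higher and 1 lower, against 14.2% and 21.4% of all genes. Their median change was 0.22, with a range of -0.66 to 0.54. BST2 lies between PLVAP and MVB12A, which rose by 0.46 ± 0.08 and 0.47 ± 0.08 (SE). Beside ISG15, the Notch target gene HES4 rose by 0.53 ± 0.11 (SE) and AGRN read 0.24 ± 0.12 (SE, adjusted p = 0.154). Beside IFI6, the kinase gene FGR fell by 0.66, with an SE of 0.11, and FAM76A read -0.05 ± 0.08 (SE). The outer neighbours of IFI44L and IFI44, PTGFR and ADGRL4, read -0.09 ± 0.09 and -0.20 ± 0.09 (SE), and those of MX2 and MX1, FAM3B and LINC00479, read 0.40 ± 0.16 and 0.03 ± 0.09 (SE). None of these 4 was called, although FAM3B was with the replicate block (adjusted p = 0.0178). On either side of ISG20, ACAN rose by 0.54 ± 0.11 (SE), or 0.35 with 16 added before log2, while MIR7-2 read 0.20 ± 0.10 (SE, adjusted p = 0.131). IFI27 is flanked by its relatives IFI27L1, given above, and IFI27L2, which read 0.13 ± 0.07 (SE, adjusted p = 0.166). IFI27L2 was called after cyclic loess, at 0.23 (adjusted p = 0.0257). The neighbours of IFI35, RPL27 and VAT1, read 0.28 ± 0.10 and -0.20 ± 0.07 (SE, adjusted p = 0.0544 and 0.0592). RPL27 was called without treated replicate 1 (adjusted p = 0.0204) and under 4 other settings, and VAT1 under 4.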

How the data were processed

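Total RNA of 6 samples of RL cells was labelled and hybridised to Affymetrix Gene 1.0 ST arrays, per the labels. The authors deposited linear intensities. The submitters' processing notes name GCOS 1.4, Affymetrix Expression Console and RMA without their order. As RMA output is on the log2 scale, the authors must have returned to linear values, a step no source used here states. No genome build or scan date is given either.

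Log2 was taken with no added constant. Of 33297 probe sets, 19460 had 1 gene symbol, 1754 several and 12083 none. Symbols were updated through Entrez IDs, and the brightest probe set per gene gave 18417 genes. All genes were fitted in limma 3.58.1 (R 4.3.3, two-sided moderated test, no block) with Benjamini-Hochberg adjustment at 0.05, and the code was tested on simulated data. The number of arrays limits the precision. Correlations of same-numbered arrays' deviations from group means were -0.02, 0.09 and 0.07, so the replicate numbers were not taken as pairs.

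Members and lists were chosen with earlier results of these data known. Genes named beside the members were up to 4 called genes per list by smallest adjusted p. Where none was called, the 2 largest changes were named. Added to these were the genes tested next to a member in order of start coordinate and the 5 nearest profiles. Promoter windows are those of RefSeq. Tables and plots were made in Python 3.11.15 with matplotlib 3.10.9, numpy 2.4.6 and pandas 2.3.3.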

Additional observations from a re-analysis of the deposited data

How the results depend on the processing

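Counts were recomputed with a replicate block, without each array in turn, with array medians set equal, after cyclic loess, with an intensity trend, a robust prior or array weights, without the dimmest 30% of genes, with 16 added before log2, with probe sets averaged per gene and at an adjusted p of 0.01. At 0.01 the count over all genes went from 6568 to 3586. With the replicate block it was 6548, with 9 effectors and 29 of the other pathway genes higher, and leaving out 1 array gave 4609 to 6153. The effectors called higher numbered 8 or 9 under every setting, and the other pathway genes 23 to 37, against 31. Flanking genes called numbered 5 to 8, against 6. Searching the whole promoter window left the ISRE count at 8. No change named here was reversed past the threshold. The call of ISG15 was lost without untreated replicate 1 (0.31), untreated replicate 2 (0.35) or treated replicate 1 (0.35), and at 0.01. The call of ISG20 was lost without untreated replicate 2 (-0.29), after cyclic loess (-0.20) and at 0.01. The block also ended the calls of IFNGR1 and TRIM25 and added those of IFNG and FAM3B, and the cause was not tested. No detection calls were used, so which dim genes, most ligand genes among them, lay above background is not known.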

Other observations

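Over all genes tested, the ISRE core was about as frequent before the starts of genes called higher as of the others. With the 10 effectors left out, it was found in 72 of 1901 genes called higher that have a promoter window (3.79%), in 121 of 3289 called lower (3.68%) and in 301 of 9040 not called (3.33%). Within the pathway lists it was found in 12 of 25 genes called higher and in 10 of 40 others. The GAS core was found in 5 of those 25 and in 10 of those 40. These are counts of letters, with no test, and the lists were chosen with earlier results known.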
